A study of Mus musculus with 17 samples.

Results

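Hmgcs1, Mvk, Pmvk, Mvd, Idi1, Fdps, Fdft1, Sqle and Lss encode enzymes of the route that carries carbon from acetoacetyl-CoA through mevalonate to lanosterol, its first sterol. They were chosen by name, in pathway order, with earlier results of these data known. All 9 were found among the 52373 gene identifiers that every library lists. Ribosome-bound RNA was taken from the corpus callosum, a white matter tract, of male GFAP-Cre+/- Rpl22HA/wt mice, in which Cre driven by the GFAP promoter switches on an HA-tagged ribosomal protein. Tagged ribosomes were pulled down with their RNA, and the labels call the cells astrocytes. Mice aged 8 to 9 weeks ate chow with 0.2% (w/w) cuprizone, which chelates copper and leads to the loss of oligodendrocytes, and age-matched mock mice of the same genotype stayed on a normal diet. The 5-week groups were taken at the end of feeding, the 5.5-week groups after 0.5 weeks back on regular chow and the 7-week groups after 2 weeks. The study describes these endpoints as acute demyelination, early remyelination and late remyelination.

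The mevalonate pathway builds isoprene units, joins them into squalene and closes squalene into lanosterol, from which cholesterol is made. Its genes are transcribed under SREBP2, a membrane-bound factor that is released when the cell's sterol falls and that acts at promoters together with NF-Y and Sp1, which bind CCAAT and GC boxes. In the brain, cholesterol is made locally, astrocytes supply it to other cells on lipoproteins, and myelin holds most of it.

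The stretch before the start of 5 of the genes is printed here because the data compare genes of a single regulatory group, of which Lss behaved unlike the others. RefSeq, in build GRCm38.p6, gave an entry to 6 of the 9 genes (Hmgcs1, Mvk, Pmvk, Mvd, Idi1 and Lss), and each stretch holds the 250 bases before the start, 5′ to 3′ on the gene's strand. Hmgcs1 is at chr13:119690101-119690350 on the plus strand, Mvk at chr5:114444019-114444268 on the plus strand, Mvd at chr8:122443423-122443672 on the minus strand, Idi1 at chr13:8885356-8885605 on the plus strand and Lss at chr10:76531355-76531604 on the plus strand. Capitals mark CCAAT or its reverse complement ATTGG, and in Hmgcs1 also TCACCCCAC, a match to the sterol element letters TCACNCCAC.
Hmgcs1: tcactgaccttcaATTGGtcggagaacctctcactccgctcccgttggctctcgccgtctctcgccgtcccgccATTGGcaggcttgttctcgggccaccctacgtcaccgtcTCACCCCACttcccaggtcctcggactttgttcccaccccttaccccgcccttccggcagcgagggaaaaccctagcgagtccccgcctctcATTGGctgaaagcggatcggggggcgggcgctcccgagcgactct
Mvk: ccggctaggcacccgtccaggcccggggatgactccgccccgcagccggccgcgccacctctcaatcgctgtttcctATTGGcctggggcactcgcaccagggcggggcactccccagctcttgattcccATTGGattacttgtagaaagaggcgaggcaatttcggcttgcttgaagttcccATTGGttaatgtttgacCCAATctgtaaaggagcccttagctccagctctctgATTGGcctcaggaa
Mvd: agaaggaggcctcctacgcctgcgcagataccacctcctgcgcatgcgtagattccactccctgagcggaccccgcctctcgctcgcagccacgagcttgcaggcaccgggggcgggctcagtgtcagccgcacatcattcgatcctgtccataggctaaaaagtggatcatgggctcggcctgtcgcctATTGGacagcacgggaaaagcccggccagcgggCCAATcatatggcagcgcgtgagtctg
Idi1: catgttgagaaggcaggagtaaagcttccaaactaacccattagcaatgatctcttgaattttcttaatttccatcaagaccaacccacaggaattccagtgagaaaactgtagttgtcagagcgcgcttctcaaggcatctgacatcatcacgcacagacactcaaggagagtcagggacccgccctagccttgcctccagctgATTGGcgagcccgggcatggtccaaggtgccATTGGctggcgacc
Lss: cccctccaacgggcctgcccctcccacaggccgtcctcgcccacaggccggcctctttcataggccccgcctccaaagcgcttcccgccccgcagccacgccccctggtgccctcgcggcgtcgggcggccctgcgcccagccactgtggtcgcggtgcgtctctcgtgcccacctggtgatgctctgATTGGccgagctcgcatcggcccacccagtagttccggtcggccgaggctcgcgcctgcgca

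CCAAT, read on both strands, was found before the start of all 6 genes with an entry. By promoter that is 6 of 7, against 33.9% of 32851 promoters of the same length. Mvk held 5 matches, Hmgcs1 3, Mvd 2, Idi1 2, Lss 1 and Pmvk 1, the latter before the outer of its 2 listed starts. The GC box letters GGGCGG, on either strand, were found in 5 of the 6 genes, Pmvk being without. By promoter that is 5 of 7, against 32.7% of promoters. TCACNCCAC, on either strand, was found in Hmgcs1 only, 137 bases before the start, against 1.05% of promoters. No match in these stretches overlapped another. Lss held CCAAT and GC boxes too, and the part of these letters in the values of any gene was not tested.

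Of the 17 libraries, 8 hold values that repeat another library of their group plus an integer from 1 to 10, in 46.6% (mock replicate 1 of 5 weeks) to 96.4% of genes with 500 or more counts. Pairs among the other 9 libraries agree within 10 counts in at most 3.97% of such genes. Of the 72 values of the 9 genes in these columns, 57 lay 1 to 10 above the repeated library and 15 lay further above. These columns were left out, which left 3 cuprizone and 2 mock libraries at 5.5 weeks and 1 library per group at 5 and at 7 weeks, with total counts of 20797535 to 30400048. The labels put the 5-week libraries in batch 1 and the rest in batch 2, so week and batch cannot be told apart between 5 and 5.5 weeks. The 7-week cuprizone library stood apart, with 34576 genes having a count against at most 23980 in the other 8. All 12 astrocyte markers, Gfap, Aqp4 and Slc1a2 among them, had counts in every library, and so had all 14 of mature oligodendrocytes, 10 of oligodendrocyte precursors and newly formed cells, 10 of microglia and 11 of neurons. The summed level of the oligodendrocyte markers, 10169 to 24243 CPM, was of the order of the astrocyte sum, 10174 to 18598 CPM, and the neuron sum ran from 7745 to 15264 CPM.

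Levels here are CPM, the count of a gene relative to its library's total after TMM scaling, and between genes they are compared only per kilobase of exon. On that scale, averaged over the 9 libraries, Hmgcs1, the synthase that makes HMG-CoA, stood highest at 80.4 CPM per kb. Pmvk, phosphomevalonate kinase, followed at 44.4, Fdft1, squalene synthase, at 35.1 and Mvd, the decarboxylase that makes isopentenyl diphosphate, at 26.0 CPM per kb. Sqle, squalene epoxidase, was at 15.1, Mvk, mevalonate kinase, at 9.76, Lss, lanosterol synthase, at 4.71 and Idi1, the isomerase of the isoprene units, at 3.91 CPM per kb. Fdps, farnesyl diphosphate synthase, was lowest at 0.428 CPM per kb, with 31 to 68 counts per library. Single libraries turned some neighbours in this order: in the 5-week mock library Fdft1 (62.7) stood above Pmvk (54.9), in the 5-week cuprizone library Mvd (17.1) above Fdft1 (16.9) and Mvk (9.41) above Sqle (4.85), and in the 5-week and 7-week mock libraries Idi1 (6.81 and 5.01) above Lss (4.04 and 4.57 CPM per kb). A share of the exon sequence of Fdps (26.2% of 50-base stretches), Fdft1 (26.5%), Idi1 (25.3%) and Hmgcs1 (11.6%) also occurs in other annotated transcripts, so these levels are uncertain where the counting divided or dropped shared reads.

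**Figure D1:**
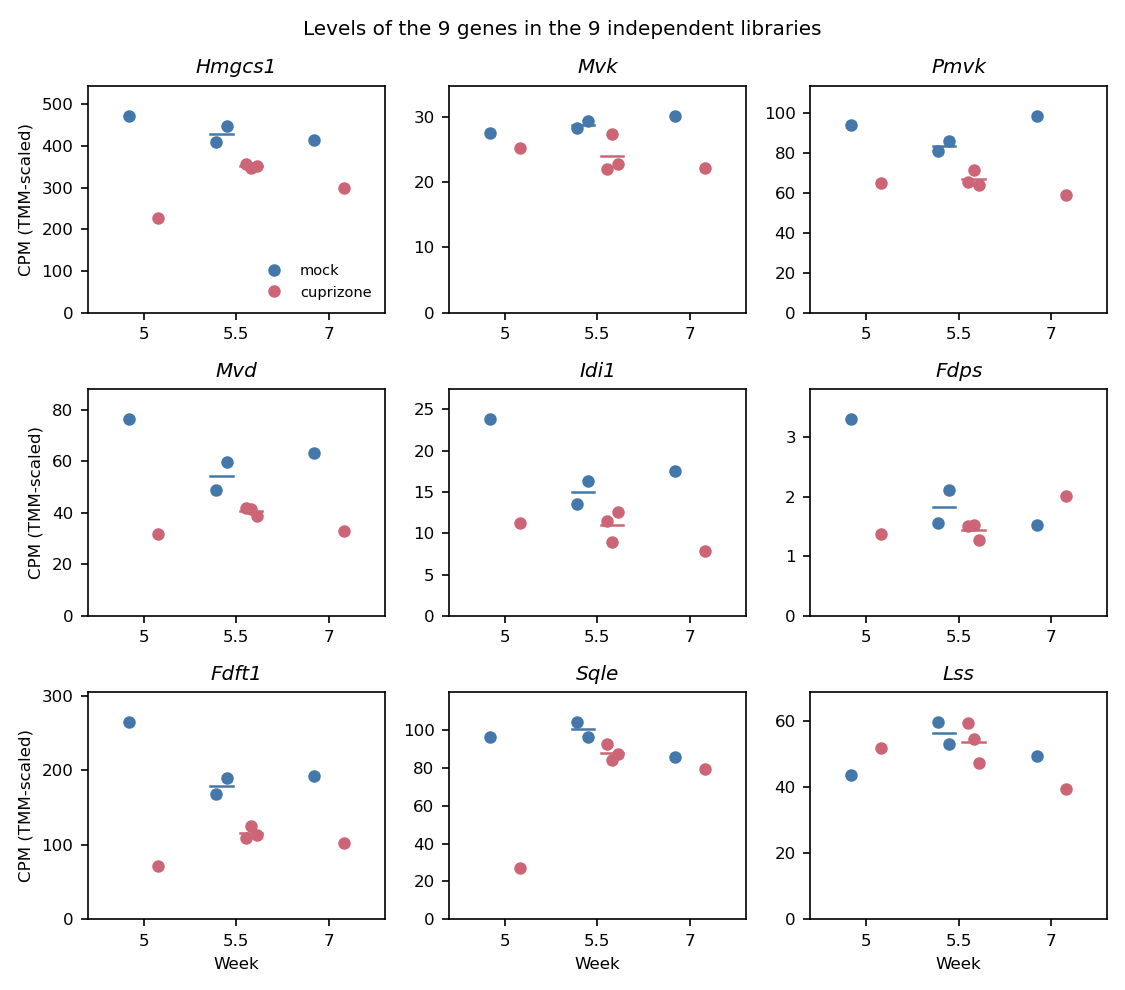
Level of each gene (y axis, TMM-scaled CPM from 0) by week (x axis) in the 9 independent libraries, mock in blue and cuprizone in red, with 1 point per library and a line at the 5.5-week means. Hmgcs1, Mvk, Pmvk, Mvd, Idi1 and Fdft1 have all 5 cuprizone points below all 4 mock points, a placing whose share over all genes was not computed. Sqle has its low point at 5 weeks (26.9 CPM), and the 2 colours mix in Lss.

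At 5.5 weeks, the only week with replicates, Fdft1 fell in cuprizone, and every other gene had a lower cuprizone mean without passing the test. Fdft1, which joins farnesyl units into squalene and so commits carbon to sterols, was the only 1 of the 9 called by edgeR, against 0.392% of the 16086 genes tested that were called lower and 1.47% called in either direction. All 9 log2 fold changes were negative (49.6% of all genes) and their median was -0.33, against 0.00 over all genes tested. Both mock libraries lay above all 3 cuprizone libraries in 8 of the 9, Lss being the exception, against 13.7% of all genes. The unadjusted p was under 0.05 in 5 of the 9, Hmgcs1, Pmvk, Mvd, Idi1 and Fdft1, against 4.64% of genes called lower at that level.

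Among the genes up to isopentenyl diphosphate, Hmgcs1 was at 410 and 447 CPM in the mock libraries and at 356, 348 and 351 in the cuprizone libraries. The cuprizone libraries sat close together below both mock libraries, at 352 ± 3.91 (SD, n = 3) against 428 ± 26.2 (SD, n = 2), and the log2 fold change was -0.29 ± 0.10 (SE, edgeR adjusted p = 0.275). Mvk, which adds the initial phosphate to mevalonate, was at 28.3 and 29.3 CPM in mock and at 22.0, 27.4 and 22.8 in cuprizone. Cuprizone replicate 2 lay just under the mock libraries and the others further below, and the log2 fold change was -0.27 ± 0.14 (SE, edgeR adjusted p = 0.520). Pmvk, which adds the next phosphate, was at 81.1 and 85.8 CPM in mock and at 65.5, 71.5 and 63.8 in cuprizone. Its groups were separate by more than their own ranges, and the log2 fold change was -0.33 ± 0.11 (SE, edgeR adjusted p = 0.253). Mvd was at 49.0 and 59.6 CPM in mock and at 41.8, 41.6 and 38.9 in cuprizone. The mock libraries of Mvd lay further from each other than the cuprizone libraries did, and the log2 fold change of -0.42 ± 0.12 (SE) gave an edgeR adjusted p of 0.153.

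In the middle of the pathway, Idi1 was at 13.6 and 16.4 CPM in mock and at 11.4, 8.98 and 12.6 in cuprizone. The gap between its groups was smaller than the range within either, and the log2 fold change was -0.45 ± 0.17 (SE, edgeR adjusted p = 0.331). Fdps, which makes the farnesyl diphosphate that also feeds ubiquinone, dolichol and protein prenylation, was at 1.56 and 2.11 CPM in mock and at 1.51, 1.53 and 1.27 in cuprizone. The upper cuprizone libraries nearly met the lower mock library, and its log2 fold change, -0.36 ± 0.27 (SE, edgeR adjusted p = 0.689), was not told from 0 at this depth.

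From squalene on, Fdft1 was at 168 and 190 CPM in the mock libraries and at 109, 125 and 113 in the cuprizone libraries. The gap between its groups was wider than the range within either. Its mean went from 179 ± 16.0 (SD, n = 2) to 116 ± 8.12 CPM (SD, n = 3), or 1.55-fold lower, with -0.64 ± 0.11 as the log2 fold change (SE, edgeR adjusted p = 0.0153). Sqle, the oxygen-requiring step that makes squalene epoxide, was at 104 and 96.6 CPM in mock and at 92.6, 84.4 and 87.2 in cuprizone. Its groups lay side by side without overlap, and the log2 fold change was -0.20 ± 0.11 (SE, edgeR adjusted p = 0.551). Lss, which folds the epoxide into lanosterol, was at 59.6 and 52.9 CPM in mock and at 59.2, 54.3 and 47.3 in cuprizone. These overlapped, and the log2 fold change, -0.08 ± 0.13 (SE, edgeR adjusted p = 0.876), turned to 0.0212 without mock replicate 1 and to 0.00434 without cuprizone replicate 3.

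The call of Fdft1 was lost without mock replicate 3 (edgeR adjusted p = 0.129), without cuprizone replicate 1 (0.0806) or without cuprizone replicate 3 (0.0658), at log2 fold changes between -0.54 and -0.62. Exons of Fdft1 share 774 bases, 18.3% of their length, with exons of Ctsb on the opposite strand. Ctsb, a lysosomal protease gene, was at 0.25 on the log2 scale at 5.5 weeks (edgeR adjusted p = 0.456), at -1.33 at 5 weeks and at 0.19 at 7 weeks, and since the strand setting is not given in the sources used here, its part in the Fdft1 values was not tested. Markers of mature oligodendrocytes moved the other way, with 4 of 14 higher (Mog, Mag and Ugt8a among them) and 1 lower (Aspa), and their summed level was 16614 and 17565 CPM in mock against 23343, 24243 and 19887 in cuprizone. Gfap rose by 2.24 and was the 1 of 12 astrocyte markers called. The astrocyte sum was 11907 and 12498 CPM in mock against 17673, 17265 and 15019 in cuprizone. However, 7 of the 12 astrocyte log2 fold changes were negative, and the median of the 12 was -0.06. In the other marker lists edgeR called 1 of 10 precursor and newly formed oligodendrocyte markers (Gpr17, 0.94), 0 of 10 of microglia (6 at an unadjusted p under 0.05, all higher, and 1 by DESeq2), 0 of 11 of neurons and 0 of 5 tested of endothelium (0 at an unadjusted p under 0.05 and 0 by DESeq2 in both). The part of these cell types in the result was not tested, and in bulk RNA of this kind fewer cells of a type and less RNA per cell cannot be told apart.

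**Figure D2:**
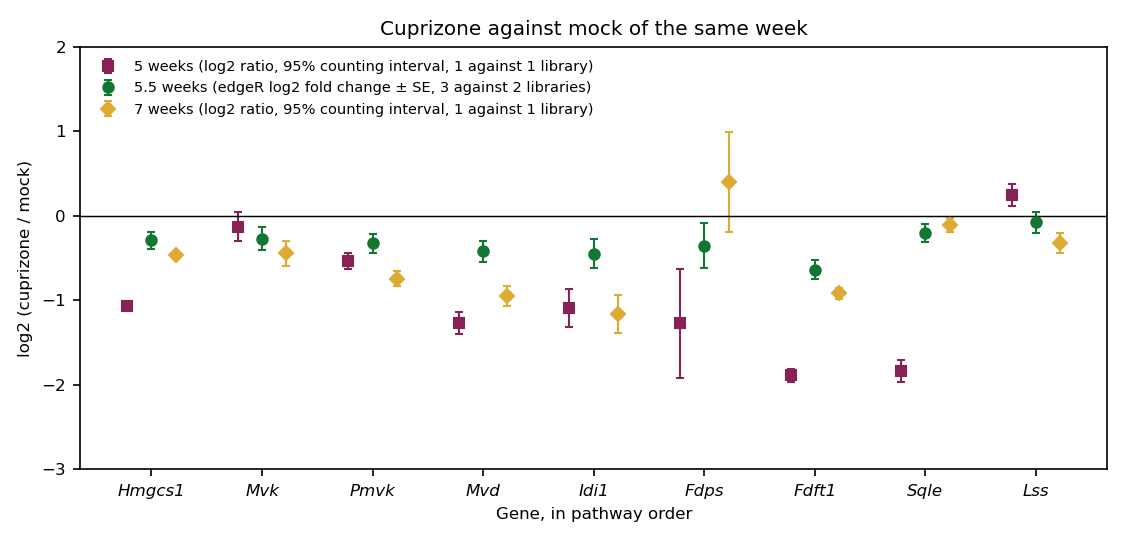
Cuprizone against mock (y axis, log2) for each gene in pathway order (x axis), with squares for 5 weeks, circles for 5.5 weeks and diamonds for 7 weeks. Circles carry the edgeR SE, squares and diamonds the 95% counting interval of 1 library against 1, and Fdps is drawn at 5 and 7 weeks although it was under the minimum level there. All circles lie below 0, and the squares of Fdft1 (-1.89) and Sqle (-1.84) are the lowest points apart from interval ends.

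At 5 weeks, at the end of feeding, genes from the top and from the squalene end of the pathway were lower in the cuprizone library, while Mvk and Lss stood near or above mock. There was 1 library per group, and the intervals are exact 95% intervals of the ratio of counts, which cover counting error only and no difference between mice. Of the 8 genes with at least 5 CPM in 1 of the libraries, 5 were at least 2-fold lower, against 13% of the 11513 genes measured, and none at least 2-fold higher, against 7.89%. Their median log2 ratio was -1.07, against -0.07 over all genes measured, and 7 of the 8 were lower at all, against 54.6%. A test needs the spread of the 5.5-week libraries: in an edgeR fit of all 9 libraries, added after seeing the data, in which the lone libraries are assumed to vary like those, 7 of the 9 genes were called lower, all but Mvk and Lss, against 18.5% of 20309 genes called lower and 33.1% called in either direction. Their edgeR adjusted p ran from 3.69e-07 for Fdft1 and 5.35e-07 for Sqle to 0.0327 for Fdps. With total counts 5 were called, without Pmvk and Fdps, against 15.2% of all genes called lower. DESeq2 called 6, without Fdps, against 13.1%.

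Hmgcs1 was at 226 CPM in cuprizone and 473 in mock, 2.09-fold lower (2.02 to 2.16). Mvd was at 31.8 against 76.6 CPM, 2.41-fold lower (2.20 to 2.63). Idi1 was at 11.2 against 23.9 CPM, 2.13-fold lower (1.83 to 2.49). In these 3 the cuprizone library lay under every mock library of every week, and the 5-week mock library was the highest of all 9, so both ends of the ratio were extreme.

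Fdft1 was at 71.5 CPM in cuprizone and 265 in mock, 3.71-fold lower (3.50 to 3.92), the largest ratio of the 8 genes. Sqle was at 26.9 against 96.2 CPM, 3.58-fold lower (3.27 to 3.93). The 2 genes differ in which library stands apart: for Fdft1 the 5-week mock library was also the highest of the 9, while the 5-week mock level of Sqle lay within the 86.0 to 104 CPM of the other mock libraries and the cuprizone level alone was low.

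Pmvk was at 65.0 CPM in cuprizone and 94.1 in mock, 1.45-fold lower (1.35 to 1.55). Mvk was at 25.2 against 27.5 CPM, 1.09-fold lower with an interval that includes no difference (0.971 to 1.23), from 566 and 565 counts, and its log2 ratio of -0.13 became 0.03 when libraries were scaled by total counts. Lss was at 51.6 against 43.6 CPM, a log2 ratio of 0.24, and was the only 1 of the 8 that was higher in cuprizone. Fdps, under the minimum level, was at 1.38 and 3.31 CPM, from 31 and 68 counts. The 5-week cuprizone library lay under all 4 mock libraries in 8 of the 9 genes, all but Lss. The share of all genes so placed was not computed.

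Scaling by total counts left 3 of the 8 at least 2-fold lower, Mvd, Fdft1 and Sqle, against 10.9% of all genes measured. Hmgcs1 was then at -0.90 and Idi1 at -0.93 on the log2 scale. The summed level of the 14 mature oligodendrocyte markers was lower too, at 10169 CPM against 16252, with 9 of 14 at least 2-fold lower (Mog at -2.55, with Mbp at 0.08) and none at 0 in either library. The astrocyte sum was higher, at 18598 CPM against 10174, with Gfap at 3.37 on the log2 scale. Of the 12 astrocyte markers 1 was up by at least 2-fold and 1 down. However, 7 of the 12 were lower, with a median log2 ratio of -0.31. The microglia sum was 78.4 against 44.6 CPM, with 4 of 7 measured markers at least 2-fold higher and 1 lower, the precursor sum 629 against 582 and the neuron sum 12368 against 15264 CPM. The part of these cells in the 5-week ratios was not tested.

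At 7 weeks, after 2 weeks without cuprizone, all 8 genes measured were lower in the cuprizone library, against 57.4% of the 12058 genes measured, but only Idi1 by at least 2-fold. That is 1 of 8, against 3.3% of genes at least 2-fold lower and 14.4% at least 2-fold different. The median log2 ratio was -0.61, against -0.13 over all genes measured. In the same edgeR fit of 9 libraries 5 of the 9 were called lower at 7 weeks, against 15.3% of genes called lower and 39.3% in either direction: Fdft1 (edgeR adjusted p = 0.000778), Mvd (0.00128), Idi1 (0.00255), Pmvk (0.00379) and Hmgcs1 (0.0362). With total counts 3 were called, Mvd, Idi1 and Fdft1, and DESeq2 called 4, without Hmgcs1.

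Idi1 was at 7.86 CPM in cuprizone and 17.6 in mock, 2.23-fold lower (1.91 to 2.62). Mvd was at 32.8 against 63.3 CPM, 1.93-fold lower (1.78 to 2.09), and Fdft1 at 102 against 193 CPM, 1.89-fold lower (1.81 to 1.98). The 7-week cuprizone library lay below all 4 mock libraries in 8 of the 9 genes, all but Fdps, and the share of all genes so placed was not computed. Pmvk was at 58.9 against 98.7 CPM, 1.68-fold lower (1.58 to 1.78), its lowest and its highest level in the 9 libraries. Hmgcs1 was at 299 against 414 CPM, 1.38-fold lower (1.35 to 1.42), and Mvk at 22.2 against 30.2 CPM, 1.36-fold lower (1.23 to 1.51).

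The last steps differed least between the 7-week libraries. Lss was at 39.4 against 49.3 CPM, 1.25-fold lower (1.16 to 1.35), and this cuprizone library was its lowest of the 9. Sqle was at 79.6 against 86.0 CPM, 1.08-fold lower (1.02 to 1.14). Fdps, under the minimum level, was at 2.02 against 1.53 CPM, from 59 and 44 counts.

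Scaling by total counts moved the median of all genes from -0.13 to 0.20 at 7 weeks, and from -0.07 to 0.09 at 5 weeks. Under it none of the 8 was 2-fold different at 7 weeks, the median of the 8 was -0.28, Sqle turned to 0.22 and Lss stood at 0.00, while the other 6 stayed negative, and the shares of all genes at least 2-fold lower and higher went from 3.3% and 11.1% to 0.929% and 16.8%. The 7-week cuprizone library also held 805 CPM of the 10 microglia markers against 49.6 in mock, with all 10 higher, and 261 CPM of the 8 endothelial markers against 5.81, with all 8 higher, and no marker of these lists was at 0 in it. In the other 8 libraries the microglia sum ran from 33.6 to 78.4 CPM and the endothelial sum from 0.667 to 7.18. Other sums were lower in the 7-week cuprizone library. That of precursor and newly formed oligodendrocytes was 416 against 837 CPM (7 of 9 measured markers lower, 2 by at least 2-fold). That of mature oligodendrocytes was 14383 against 19902 CPM (10 of 14 lower, 3 by at least 2-fold). That of neurons was 7745 against 11931 CPM, with 7 of 11 lower, 0 by at least 2-fold, and 2 at least 2-fold higher. The astrocyte sum was 13125 against 12356 CPM, with 6 of 12 lower. The part of these cells in the 7-week values was not tested.

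The cuprizone effect differed between 5 and 5.5 weeks in 4 of the 9 genes, Hmgcs1, Mvd, Fdft1 and Sqle, each more negative at 5 weeks, against 14.2% of the 20309 genes tested in that direction. The test was edgeR's interaction term in a fit of all 9 independent libraries, in which the lone libraries are assumed to vary like the 5.5-week groups. Sqle differed most, by -1.65 ± 0.22 (SE, log2, edgeR adjusted p = 1.79e-05), since it was close to mock at 5.5 weeks. For the other 5 genes the difference was -0.22 for Pmvk, 0.13 for Mvk, -0.65 for Idi1, -0.91 for Fdps and 0.31 for Lss, with edgeR adjusted p between 0.157 and 0.847, and week cannot be told apart from batch here. Between 7 and 5.5 weeks, both in batch 2, the effect differed in none of the 9, against 17.1% of genes, although Mvd (-0.53 ± 0.24, SE) and Idi1 (-0.72 ± 0.32, SE) had unadjusted p of 0.0352 and 0.0349 in the edgeR fit (adjusted p = 0.119 for each), and DESeq2 called none either. Without cuprizone replicate 2 of 5.5 weeks Idi1 was called in both differences, at -0.76 between 5 and 5.5 weeks (edgeR adjusted p = 0.0490) and at -0.86 between 7 and 5.5 weeks (0.0302).

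Across the 9 libraries the genes kept to a common order to different degrees. Each gene's log2 CPM was set against the mean of the 9 centred genes, which includes the gene itself, as a description over 9 libraries that share weeks and batches. Pearson's r was 0.99 for Fdft1, 0.98 for Mvd, 0.96 for Hmgcs1, 0.89 for Pmvk and 0.83 for Idi1. It was 0.69 for Sqle, 0.67 for Mvk, 0.64 for Fdps and 0.03 for Lss. The lowest library was a cuprizone library in all 9 genes, the 5-week one in 4, the 7-week one in 3 and a 5.5-week one in 2. The highest was a mock library in all 9, and the shares of all genes with such extremes were not computed. The spread from lowest to highest was widest in Sqle (3.88-fold), Fdft1 (3.71-fold) and Idi1 (3.04-fold) and narrowest in Mvk (1.37-fold) and Lss (1.51-fold).

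Of 9861 other genes with at least 5 CPM in every library, those most like the mean of the 9 were Prrg1 (r = 0.974 over the 9 libraries), Serpinb1a (0.968), Trmt10b (0.966), Brcc3 (0.966) and Wdr53 (0.963). Acd, Cryzl1, Nmral1, Pfdn1 and Aspa followed, at 0.944 to 0.955. Serpinb1a and Aspa, which makes the enzyme that splits N-acetylaspartate in oligodendrocytes, had wider changes than the 9 genes' median, with log2 ratios at 5 weeks of -2.43 and -2.84. No gene of the other sterol lists was among these 10.

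The genes that frame the stretch from HMG-CoA to lanosterol did not all move with it. Of the 5 genes of the entry steps, which make acetyl-CoA, acetoacetyl-CoA and mevalonate, 0 were called by edgeR at 5.5 weeks, with 1 at an unadjusted p under 0.05 and 1 called by DESeq2 (Acss2), and their median was -0.04. Acss2, which makes acetyl-CoA from acetate, was at -0.47 ± 0.11 on the log2 scale (SE, edgeR adjusted p = 0.0716), and Acat2, which condenses acetyl-CoA, at -0.16 ± 0.11 (SE, edgeR adjusted p = 0.666). At 5 weeks Acss2 was 2.17-fold lower (1.99 to 2.36) and Aacs, which activates acetoacetate, 1.78-fold lower (1.64 to 1.95). At 7 weeks Acly, Acss2 and Aacs were at -0.61, -0.55 and -0.54 on the log2 scale.

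Among the 10 genes of the steps after lanosterol, 1 fell at 5.5 weeks: Msmo1, the sterol oxidase that strips methyl groups, at -0.57 ± 0.11 (SE, edgeR adjusted p = 0.0208), a call lost without any 1 library other than cuprizone replicate 2 (edgeR adjusted p from 0.0813 to 0.119). Their median was -0.16. At 5 weeks 7 of the 9 measured were at least 2-fold lower, with a median of -2.02, and Msmo1 was 8.78-fold lower (8.14 to 9.48), Tm7sf2, a sterol reductase, 6.99-fold (5.54 to 8.90) and Dhcr7, the last reductase, 5.05-fold (4.40 to 5.81). At 7 weeks their median was -0.24, with Msmo1 at -0.65 and Hsd17b7, a keto-steroid reductase, at -0.56. The interaction between 5 and 5.5 weeks was called, more negative at 5 weeks, in 8 of these 10 and in 3 of the 5 entry genes. Over all genes tested it was so called in 14.2%.

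Branches that leave the pathway at farnesyl diphosphate had 0 of 14 genes called by edgeR at 5.5 weeks (1 at an unadjusted p under 0.05, 0 by DESeq2) and a median of 0.04, with Rabggtb, a subunit of the Rab prenyltransferase, at -0.28 ± 0.12 (SE) and Coq2, which prenylates the ubiquinone ring, at 0.25 ± 0.20 (SE), edgeR adjusted p = 0.406 and 0.718. At 5 weeks 2 were at least 2-fold lower and 2 at least 2-fold higher, with a median of -0.01. Icmt, the methyltransferase of prenylated proteins, was 2.74-fold lower (2.26 to 3.34), and the prenyltransferase subunits Pggt1b and Fnta were at 1.26 and 1.16 on the log2 scale. At 7 weeks Coq2 was at 1.07, and Rabggta and Fntb, further prenyltransferase subunits, at -0.86 and -0.63, with a median of -0.30 for the 14.

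**Figure D3:**
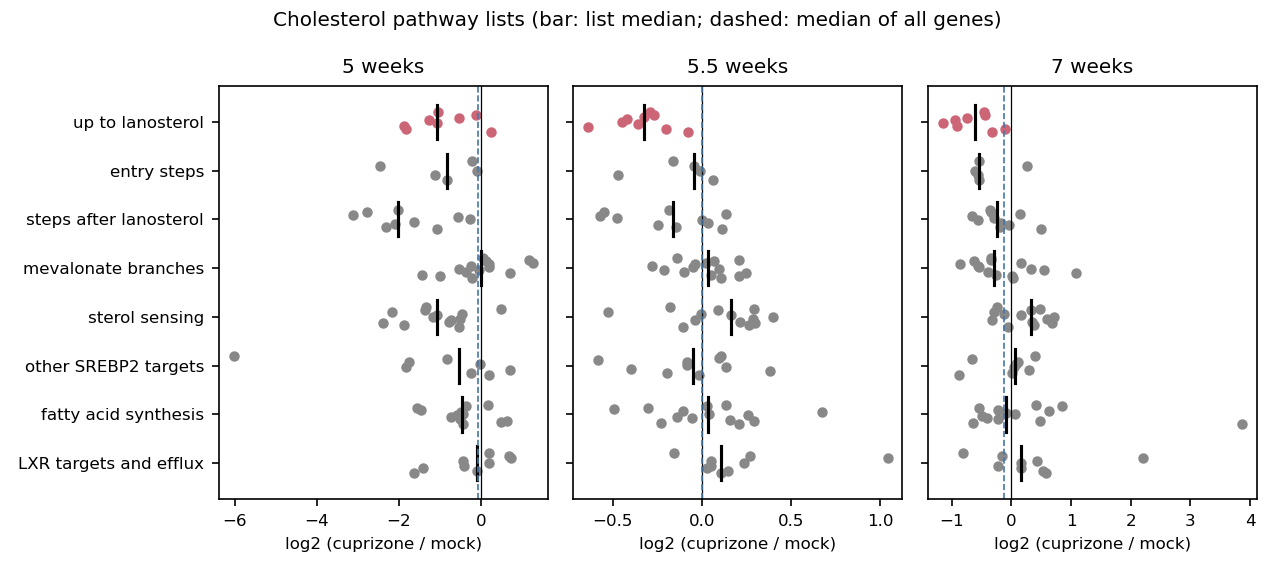
Cuprizone against mock (x axis, log2, with a range of its own in each panel) for the genes of 8 lists (y axis) at 5, 5.5 and 7 weeks, with 1 point per gene, a bar at the list's median and a dashed line at the median of all genes. The 9 genes (red, "up to lanosterol") have medians of -1.07, -0.33 and -0.61, and the steps after lanosterol -2.02, -0.16 and -0.24.

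Of the 13 genes that sense sterols and release or hold back SREBP2, 1 fell at 5.5 weeks: Insig1, which retains the SREBP complex in the endoplasmic reticulum and is itself an SREBP target, at -0.53 ± 0.11 (SE, edgeR adjusted p = 0.0424), a call lost without either mock library and without cuprizone replicate 1 or 3 (edgeR adjusted p from 0.0953 to 0.269) or with a minimum of 1 CPM in all 5 libraries (0.0559). The median of the 13 was 0.17 at 5.5 weeks, of the opposite sign to that of the 9 genes. At 5 weeks 7 of 13 were at least 2-fold lower, with a median of -1.08, and Rnf139, March6 and Insig1, all tied to the turnover or retention of sterol regulators, were at -2.38, -1.89 and -2.17. At 7 weeks the median was 0.33, with Mbtps2, a protease that releases SREBP, at 0.72, Rnf139 at 0.68 and Erlin1, which binds the SREBP complex, at 0.59.

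Of 10 SREBP2 targets outside synthesis 0 were called by edgeR at 5.5 weeks, and their median was -0.05. At an unadjusted p under 0.05 were 3, of which 2 were lower and 1 higher, and DESeq2 called 1 (Stard4). Stard4, a cholesterol carrier, was at -0.58 ± 0.13 (SE, edgeR adjusted p = 0.0509) and Tmem97 at -0.40 ± 0.15 (SE, edgeR adjusted p = 0.310). At 5 weeks 3 of 8 measured were at least 2-fold lower. Tmem97, a regulator of lysosomal cholesterol, was 3.59-fold lower (3.02 to 4.29) and Npc1, which moves cholesterol out of lysosomes, 3.42-fold (2.92 to 4.03). At 7 weeks 2 of 8 measured were lower, Stard4 at -0.67 and Sec14l2, a squalene-binding protein, at -0.87. The median of the 8 was 0.06.

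Of 14 genes of fatty acid synthesis 1 fell at 5.5 weeks: Scd1, a desaturase, at -0.49 ± 0.10 (SE, edgeR adjusted p = 0.0376), a call lost without any 1 of the 5 libraries (edgeR adjusted p from 0.0544 to 0.238) or with a minimum of 1 CPM in all 5 (0.0510), with a median of 0.04. At 5 weeks 2 of 12 measured were at least 2-fold lower, Scd1 2.93-fold (2.73 to 3.15) and Scd2 2.77-fold (2.70 to 2.84). At 7 weeks the median of 13 measured was -0.09, with Mlxipl, the carbohydrate-responsive factor ChREBP, at 3.86 and Acaca, acetyl-CoA carboxylase, at 0.85. Of 9 tested LXR targets and efflux genes 1 rose at 5.5 weeks: Abca1, the cholesterol exporter, by 1.04 ± 0.17 (SE, log2, edgeR adjusted p = 0.0108), from 11.1 ± 2.34 to 23.1 ± 2.46 CPM (SD, n = 2 and 3), a call lost without mock replicate 3 (edgeR adjusted p = 0.113). Abca1 was also higher in cuprizone at 5 weeks (0.73) and at 7 weeks (2.20), with 1 library per group in each. The 7-week cuprizone library, from which the values of Mlxipl and Abca1 come, held 805 CPM of microglia markers against 49.6 in mock. It held 261 CPM of endothelial markers against 5.81, and the part of these cells was not tested. At 5 weeks 2 of 9 measured efflux and LXR genes were at least 2-fold lower, Lpcat3, a phospholipid acyltransferase, at -1.63 and Cyp46a1, the neuronal cholesterol hydroxylase, at -1.41, and at 7 weeks Nr1h2, the receptor LXR beta, was at -0.81.

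Transcript length moved with the ratios in all 3 weeks. At 7 weeks the median log2 ratio of all genes measured ran from -0.64 for exon lengths up to 1000 bases through -0.34 for 2000 to 3000 bases to 0.14 for those over 6000 bases. At 5 weeks the same classes had -0.15, -0.15 and 0.04, and at 5.5 weeks -0.16, -0.05 and 0.07. The shortest of the 9, Pmvk with 1713 bases and Mvd with 1859, fell in the class of 1000 to 2000 bases, whose medians were -0.20, -0.11 and -0.46 at 5, 5.5 and 7 weeks, and both genes lay below them in each week. Lss, the longest at 10787 bases, was above the median of its class at 5 weeks (0.24 against 0.04) and below it at 7 weeks (-0.32 against 0.14). Sqle, with 5546 bases, stood at -0.11 at 7 weeks, where its class of 4000 to 6000 bases was at -0.13. The part of length in the members' values was not tested.

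**Figure D4:**
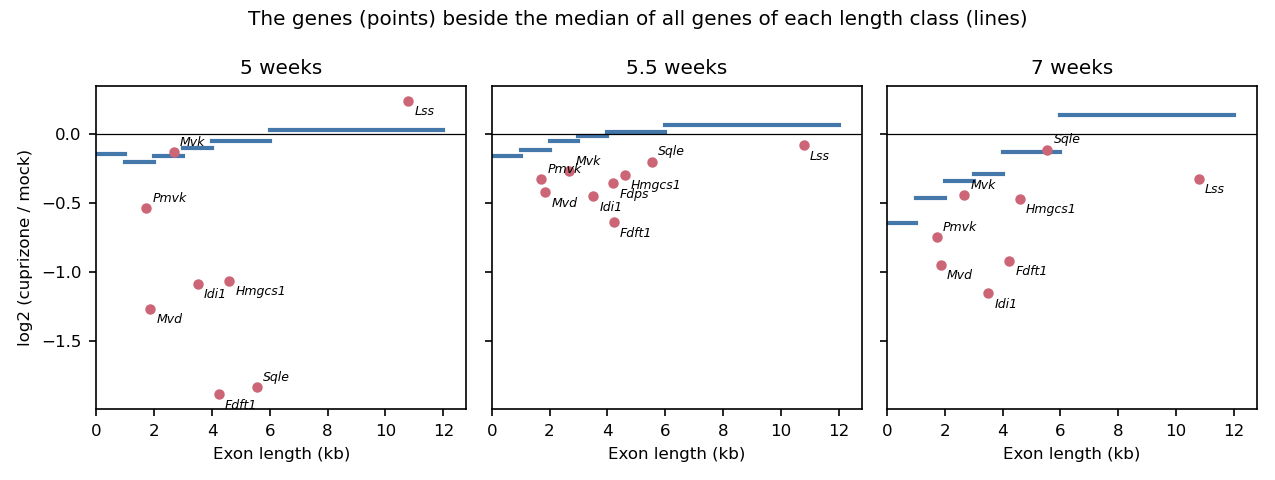
Cuprizone against mock (y axis, log2) against exon length in kb (x axis) at 5, 5.5 and 7 weeks, with the 9 genes as red points (Fdps at 5.5 weeks only) and a blue line at the median of all genes in each of 6 length classes, the last holding every gene over 6 kb. At 7 weeks the lines climb from -0.64 to 0.14, with Idi1 (-1.15), Mvd (-0.95) and Fdft1 (-0.92) furthest below them and Sqle (-0.11) on its line.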

How the data were processed

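Per the labels' protocols, HA-tagged ribosomes were immunoprecipitated from micro-dissected corpus callosum and their RNA was sequenced. The submitters' processing notes name FastQC 0.11.9, STAR 2.5.4b and featureCounts 1.6.0, and the builds GRCm38/mm10 and GRCm39/mm39 without their role, so gene coordinates are not given. Strand and multi-mapping settings are not given in the sources used here. The deposited values are raw counts per Ensembl gene in 9 libraries. The deposited whole numbers of the other 8 libraries repeat a library of their group plus 1 to 10 in 46.6% to 96.4% of genes with 500 or more counts and were used only in alternatives. GENCODE release M21 gave the symbols, naming 99.4% and 94.0% of the 2 batches' identifiers.

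The 9 libraries were scaled together by TMM (edgeR 4.0.16, R 4.3.3). At 5.5 weeks genes passing filterByExpr (minimum count 10) were tested by edgeR's robust quasi-likelihood F test, two-sided, p adjusted by Benjamini-Hochberg over every gene tested, threshold 0.05 (residual df 3, median prior df 8.64). At 5 and 7 weeks the log2 ratio used a prior count of 2, with exact Clopper-Pearson 95% intervals without it, for genes with at least 5 CPM in 1 library. A fit of the 9 libraries (residual df 3) gave the interactions and, added after seeing the data, tests at 5 and 7 weeks. limma 3.58.1 and DESeq2 1.42.0 were alternatives, as were scaling, filters, repeated libraries and leaving out libraries. Fits were tested on simulated data. The labels call the replicates biological, and the p-values at 5.5 weeks measure the spread between these libraries. Those of the 5-week and 7-week tests and of the interactions rest on the spread of the 5.5-week libraries. No spread at 5 or 7 weeks was measured.

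Members and lists (4 of the sterol pathway, plus sterol sensing, SREBP2 targets, fatty acid synthesis, LXR targets and 6 marker lists) were chosen with earlier results of these data known. Named were all 9 genes. Of each other pathway list the called genes at 5.5 weeks (at most 4), otherwise the 2 largest changes, were named, and the 3 largest ratios at 5 and 7 weeks. Markers named are among the first 3 of their list or were called. The 10 genes of highest r were also named. Some genes that this rule picks are not reported here. Ctsb, and any further gene given with a value, was named after its values were seen.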

Additional observations from a re-analysis of the deposited data

Results flagged for a closer look

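For 4 of the 9 genes the effect of cuprizone differed between 5 and 5.5 weeks by the test of the difference itself, the interaction term of edgeR in the fit of the 9 independent libraries (cuprizone minus mock at 5 weeks, minus the same at 5.5 weeks, log2). Over all 20309 genes tested this term was called in 23.1%, and in 14.2% as more negative at 5 weeks. The difference was -0.78 ± 0.20 (SE, edgeR adjusted p = 0.00827) for Hmgcs1, -0.85 ± 0.24 (SE, edgeR adjusted p = 0.0122) for Mvd, -1.26 ± 0.22 (SE, edgeR adjusted p = 0.00024) for Fdft1 and -1.65 ± 0.22 (SE, edgeR adjusted p = 1.79e-05) for Sqle. For Sqle the difference came with a 5-week cuprizone level of 26.9 CPM, under the 79.6 to 92.6 CPM of the other 4 cuprizone libraries. For Hmgcs1, Mvd and Fdft1 the 5-week mock library was also the highest of the 9 libraries, at 473, 76.6 and 265 CPM. Each side of the 5-week effect is 1 library, and the 5-week libraries are a batch of their own.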

How the results depend on the processing

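Directions and calls of the 9 genes were recomputed under each alternative. Over all genes at 5.5 weeks, the 173 higher and 63 lower calls became 381 and 162 with no filter on low counts, 100 and 36 with a minimum of 1 CPM in all 5 libraries, and 614 and 175 in the fit of all 17 libraries. With all 6 deposited libraries of the week 282 were higher. Leaving out 1 library gave 49 to 189 higher and 16 to 86 lower calls. Of the 9 genes 1 was called at 5.5 weeks, or 0 to 1 without 1 library, the cause being not tested beyond the smaller number of libraries. At 5 weeks 5 were at least 2-fold lower, against 13% of all genes measured, and 3 with total counts, against 10.9%. At 7 weeks 1 was 2-fold different, and 0 with total counts or with the mean of the deposited libraries. The fit of 9 libraries called 7 of the 9 lower at 5 weeks (6 to 7 without 1 library, 5 with total counts) and 5 at 7 weeks (4 to 6 without 1 library, 3 with total counts, 7 in the fit of all 17 libraries). Between 7 and 5.5 weeks 0 differed, 3 in the fit of all 17 libraries (Pmvk, Idi1 and Fdps) and 0 to 1 without 1 library. Between 5 and 5.5 weeks 4 differed, 4 to 5 without 1 library and 6 in the fit of all 17 libraries. Signs turned for Lss at 5.5 weeks (-0.156 to 0.0212 without 1 library, positive without mock replicate 1 and at 0.00434 without cuprizone replicate 3), for Coq2 (-0.0862 to 0.70 without 1 library, negative without mock replicate 1) and for the difference of Mvk between 5 and 5.5 weeks (-0.0174 in the fit of all 17 libraries). With total counts, signs also turned for Mvk at 5 weeks (0.0308) and, at 7 weeks, for Sqle (0.216) and Lss (0.00488). The cause of these shifts was not tested. Over all genes, the fit of 9 libraries called 18.5% lower at 5 weeks, and 15.2% with total counts. At 7 weeks the shares were 15.3%, 4.88% with total counts and 22.9% in the fit of all 17 libraries. The difference between 5 and 5.5 weeks was called in 23.1% of genes in the fit of 9 libraries, and that between 7 and 5.5 weeks in 17.1%. Shares for these differences in the fit of all 17 libraries are not reported here.

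Mock and cuprizone libraries share replicate numbers 1 and 3 at 5.5 weeks, and the numbers were not taken as pairs. Deviations of same-numbered libraries from their group means had r of 0.039 and -0.081. With 2 mock libraries the deviations of each mirror those of the other, so these values are not separate checks and cannot settle pairing. A fit with the replicate block called 481 genes higher and 269 lower and 2 of the 9 genes, Mvd and Fdft1. Precision is limited by 1 library per group at 5 and 7 weeks, by 2 mock libraries at 5.5 weeks and, for Fdps, by 31 to 68 counts.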
